A study of Mus musculus with 9 samples.

Results

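The aminoacyl-tRNA synthetases are described here as 35 genes, 20 for cytoplasmic enzymes and 15 for mitochondrial enzymes. They were chosen by gene symbol from the 23946 genes of the authors' deposited table, and a symbol that ends in 2 was taken as mitochondrial. All 35 were present, and all 35 were among the 10172 genes that passed the filter of at least 1 FPKM in at least 3 libraries. FPKM is the fragments on a transcript divided by its length in kilobases and by the size of the library, so levels can be compared between genes.

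RNA was measured in mouse CD8 T cells in 3 groups of 3 libraries: DKO (genotype Tcf1-/-Lef1-/-, lacking 2 related transcription factors), CTCF KO (genotype CTCF-/-, CTCF being a DNA-binding factor that anchors chromatin loops) and wild type (WT). Donors in all groups carried hCD2-Cre, a recombinase driven by human CD2 sequences that is active in lymphocytes, and the Rosa26-lsl-GFP reporter, which turns green once Cre has acted. The DKO donors also carried floxed Tcf1 and Lef1 alleles and the CTCF KO donors floxed Ctcf alleles. Naive CD8 T cells were enriched from spleen, stained with the division dye CTV and moved into Rag1 KO hosts, whose own B and T cells do not mature. The transfer lasted 72 h, and cells positive for CTV, GFP, TCRbeta and CD8 were then sorted from the spleens. The source names call the cells of every library stim CD8 and say no more about a stimulus. Ages of the animals and pooling are not given in the sources used here.

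An aminoacyl-tRNA synthetase joins an amino acid to its matching tRNA, and the charged tRNA then brings that amino acid to the ribosome. Cytoplasmic enzymes serve the ribosomes that read nuclear messages, while a separate set, also encoded in the nucleus, charges tRNAs inside mitochondria. Several cytoplasmic enzymes sit together in the multi-synthetase complex, and many synthetase genes are known targets of ATF4, the transcription factor induced by amino acid shortage. T cells that leave quiescence and divide need more of this machinery because they raise protein synthesis.

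Promoter sequences are shown for 4 of the members whose windows hold a motif searched, the cytoplasmic genes Aars, Farsb, Gars and Yars. Iars and Tars, which hold both motifs, and the mitochondrial Ears2 are not shown. Aars, Farsb and Yars were called in comparisons below and Gars in none. The windows cover 250 bases before and 50 bases after the gene start, on the sense strand, from RefSeq on build GRCm38.p6. Capitals mark TGATGNAA on either strand (the core of the C/EBP-ATF response element, to which ATF4 dimers are known to bind; a match on the minus side of the window appears as its reverse complement) and CACGTG (the E-box, bound by MYC and related factors). The 2 motifs do not overlap in these windows.
Aars, chr8:111033592-111033891, plus strand: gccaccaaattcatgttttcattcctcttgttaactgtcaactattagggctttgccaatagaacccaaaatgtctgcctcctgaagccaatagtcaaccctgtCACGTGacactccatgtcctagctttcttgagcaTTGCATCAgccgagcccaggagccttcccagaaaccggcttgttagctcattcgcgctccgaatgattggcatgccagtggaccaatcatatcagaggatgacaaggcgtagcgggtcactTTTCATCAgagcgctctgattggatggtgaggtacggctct
Farsb, chr1:78488848-78489147, minus strand: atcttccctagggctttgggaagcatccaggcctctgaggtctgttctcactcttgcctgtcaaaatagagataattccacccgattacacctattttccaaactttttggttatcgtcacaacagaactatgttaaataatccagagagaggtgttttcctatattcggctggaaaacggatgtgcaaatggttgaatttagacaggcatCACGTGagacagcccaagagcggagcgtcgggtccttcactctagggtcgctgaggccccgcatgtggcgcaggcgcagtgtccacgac
Gars, chr6:55037751-55038050, plus strand: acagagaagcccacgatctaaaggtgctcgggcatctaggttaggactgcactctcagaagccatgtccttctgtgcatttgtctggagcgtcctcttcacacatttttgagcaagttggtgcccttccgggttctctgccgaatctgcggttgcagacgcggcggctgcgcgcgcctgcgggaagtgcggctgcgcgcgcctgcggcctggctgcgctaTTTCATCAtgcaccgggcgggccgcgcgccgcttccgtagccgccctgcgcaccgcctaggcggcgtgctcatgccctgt
Yars, chr4:129189653-129189952, plus strand: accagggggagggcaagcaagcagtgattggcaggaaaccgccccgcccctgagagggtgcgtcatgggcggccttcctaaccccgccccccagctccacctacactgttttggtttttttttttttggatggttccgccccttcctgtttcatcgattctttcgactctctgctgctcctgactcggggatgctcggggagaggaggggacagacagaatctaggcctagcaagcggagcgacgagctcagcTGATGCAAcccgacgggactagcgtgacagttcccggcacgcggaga

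In the Aars window TGATGNAA begins 112 bases before the start and again at base 10 after it, and CACGTG begins 146 bases before it. Farsb holds CACGTG alone, 39 bases before the start. Gars and Yars hold TGATGNAA alone, at 30 bases before and at base 4 after the start. RefSeq windows were matched for 27 of the 35 members. Members were counted by gene, Aars2 having 2 windows, while all windows were counted singly, so the units differ. TGATGNAA was found in 5 of 13 cytoplasmic genes (38.5%: Aars, Gars, Iars, Tars and Yars), in 0 of 14 mitochondrial genes and in 1304 of all 32851 windows (3.97%). CACGTG was found in 4 of 13 cytoplasmic genes (30.8%: Aars, Farsb, Iars and Tars), in 1 of 14 mitochondrial genes (7.14%: Ears2) and in 2349 of all windows (7.15%). These are matches of letters and were not tested as binding sites.

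The targeted genes and the libraries were checked before the members. Lef1 had 95.7, 87.4 and 89.0 FPKM in DKO libraries, against 360, 338 and 339 FPKM in WT libraries (log2 fold change -1.92, adjusted p = 1.35e-08). Tcf7, which encodes Tcf1, had 339, 333 and 355 FPKM in DKO libraries, against 259, 262 and 249 FPKM in WT libraries, so its gene-level RNA was higher in the libraries labelled DKO. Ctcf had 20.2, 17.1 and 17.6 FPKM in CTCF KO libraries, against 18.6, 20.3 and 32.7 FPKM in WT libraries, and was not called (log2 fold change -0.33, adjusted p = 0.319). Ctcf had 35.6, 39.1 and 32.4 FPKM in DKO libraries, and in CTCF KO libraries Lef1 had 428, 433 and 432 FPKM and Tcf7 252, 268 and 274 FPKM. The table does not separate deleted exons, so the group names stand for the libraries so labelled. CD8 T cell markers summed to 5845 to 6230 FPKM in DKO, 5786 to 6156 FPKM in CTCF KO and 4942 to 5256 FPKM in WT, with Cd4 under 1 FPKM throughout. Of these 6 CD8 markers, 4 were called higher and 2 lower in DKO against WT. The 7 neutrophil markers summed to 0.841 to 1.56 FPKM in DKO, 15.1 to 18.8 FPKM in CTCF KO and 41.4 to 52.1 FPKM in WT, with Elane at 0 in all 9 libraries. The 6 B cell markers summed to 99.5 to 118 FPKM in DKO, 34.1 to 37.7 FPKM in CTCF KO and 58.2 to 62.1 FPKM in WT, nearly all of it Cd79b, with Pax5 at 0 throughout. The 5 NK cell markers summed to 3.04 to 3.70 FPKM in DKO, 1.58 to 3.87 FPKM in CTCF KO and 9.85 to 16.0 FPKM in WT. The 5 erythroid markers found summed to 90.0 to 107 FPKM in DKO, 69.4 to 75.0 FPKM in CTCF KO and 67.4 to 73.4 FPKM in WT. In DKO against WT, Hbb-b1 alone of these was called higher, and their median log2 fold change was -0.34. The 6 macrophage and monocyte markers found summed to 44.9 to 52.1 FPKM in DKO, 48.6 to 54.8 FPKM in CTCF KO and 52.7 to 66.1 FPKM in WT. Lyz2, among them, was called lower in each knockout group against WT. The summed level of 4 Y-linked genes was 0.246 to 0.742 FPKM in DKO, 90.0 to 100.9 FPKM in CTCF KO and 0.595 to 2.03 FPKM in WT. The CTCF KO genotype and that difference cannot be told apart. No member lies on X or Y, but the part of that difference in the member values was not tested. The part of the marker genes in the results below was not tested.

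Cytoplasmic enzymes were far more abundant as transcripts than mitochondrial enzymes. Means over the 9 libraries ran from 46.8 to 174 FPKM for the 20 cytoplasmic genes (median 92.7) and from 2.62 to 255 FPKM for the 15 mitochondrial genes (median 15.9). Of the 12 pairs of genes with the same symbol apart from the final 2, such as Aars and Aars2, the cytoplasmic gene was higher in all 9 libraries for 11. The ratio was narrowest for Rars over Rars2, the arginine enzymes (1.51 to 2.03 over the libraries), Tars over Tars2, the threonine enzymes (1.34 to 2.05), and Iars over Iars2, the isoleucine enzymes (1.21 to 2.56). It was widest for Wars over Wars2, the tryptophan enzymes (23.9 to 54.8).

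Leucine was the exception. Lars2, the mitochondrial leucine enzyme, had 293, 278 and 241 FPKM in DKO, 217, 259 and 231 FPKM in CTCF KO and 248, 226 and 302.5 FPKM in WT. It was the highest of all 35 members, and Lars, its cytoplasmic counterpart, stood at 0.213 to 0.323 of it in every library. The groups overlapped, and Lars2 was called in no comparison. Of the 3894 bases of its annotated transcript, 72 match the gene Gm15564 at 98.6% identity. Reads that lie inside that stretch and cover no differing base could come from either gene.

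The next highest members were Vars, Kars and Dars, the valine, lysine and aspartate enzymes. Vars had 157, 163 and 157 FPKM in DKO, 180.3, 195 and 201 FPKM in CTCF KO and 168, 178 and 165 FPKM in WT. Its mean over all libraries (174 FPKM) was within the library spread of those of Kars (174 FPKM) and Dars (173 FPKM), so these 3 cannot be ordered. Among the mitochondrial genes, Tars2 (59.7 FPKM) and Rars2 (46.3 FPKM) followed Lars2, and Wars2 was lowest (2.62 FPKM, 1.57 to 3.49 over the libraries).

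**Figure D1:**
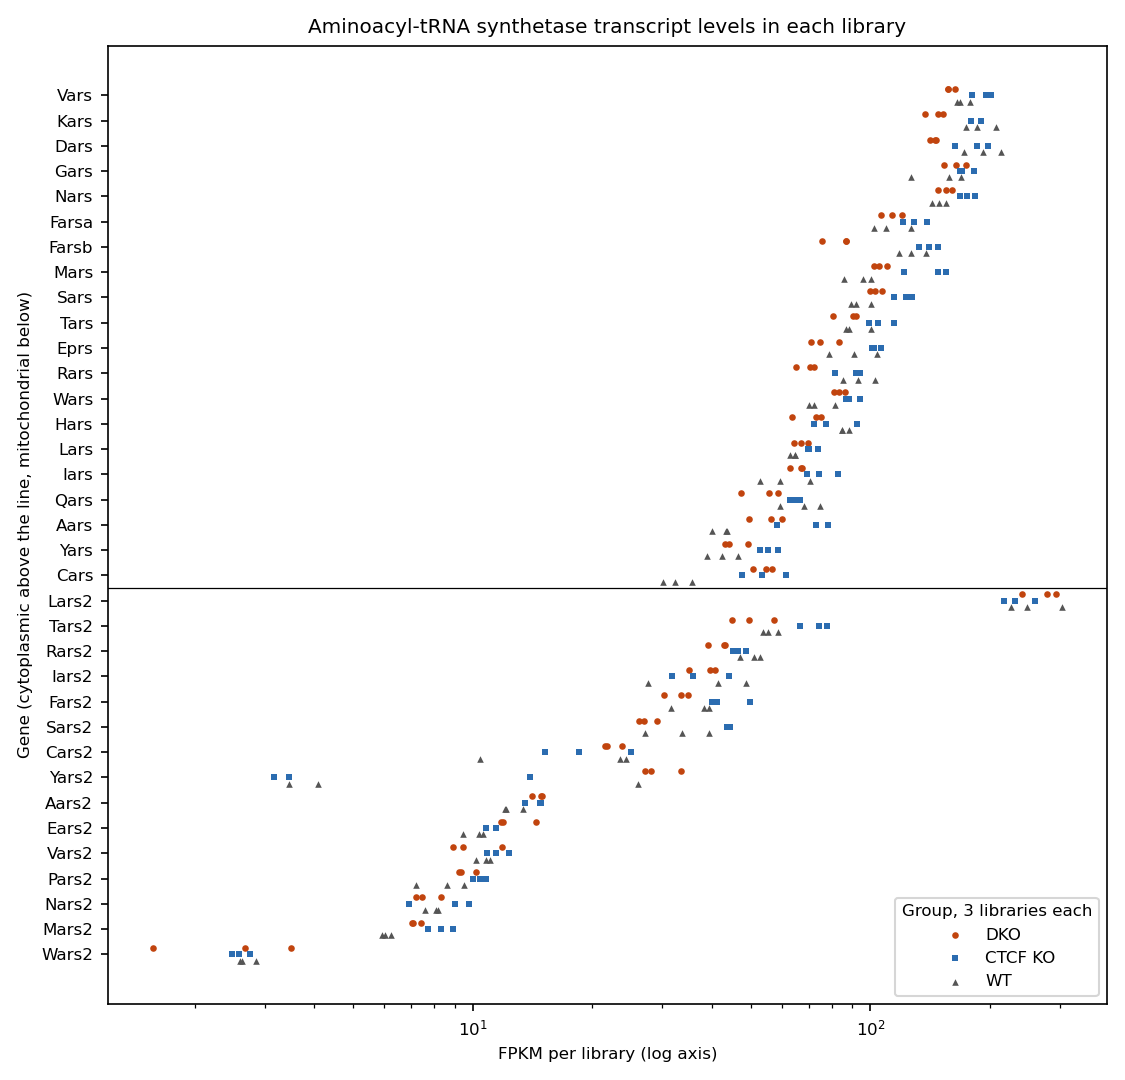
FPKM of each synthetase gene in each library, on a log axis, with cytoplasmic genes above the line and mitochondrial genes below it, each ordered by mean. Points are single libraries, 3 per group; Lars2 stands above every cytoplasmic gene, at 217 to 302.5 FPKM.

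The comparison of DKO with WT covers these transcripts in the sorted CD8 T cells of the libraries so labelled. The lysine, aspartate, arginine, glutamine and histidine enzymes and the beta subunit of the phenylalanine enzyme fell among the cytoplasmic genes, while the cysteine and alanine enzymes rose. In all, 2 of 35 members (5.71%) were higher and 7 of 35 (20%) lower in DKO, against 18.5% and 21.9% of all tested genes. The share of lower members was near that of all genes and the share of higher members below it, and the median log2 fold change was 0.01 for the members and 0.01 for all genes. All libraries of DKO were above all of WT for 7 members and below them for 8, against 26.8% and 27.3% of all tested genes. By the q-values of the authors' deposited table, 3 members were higher and 4 lower, against 6.84% and 5.89% of all genes in the table. A gene was called at a limma adjusted p (Benjamini-Hochberg over all tested genes) under 0.05. In bulk RNA, fewer cells of a type and less RNA per cell cannot be told apart.

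Farsb, the beta subunit of cytoplasmic phenylalanyl-tRNA synthetase, had the largest fall of any member. It had 87.1, 75.5 and 86.8 FPKM in DKO libraries, against 138, 126 and 118 FPKM in WT libraries (83.1 ± 6.63 and 127 ± 10.3 FPKM, SD, n = 3 each). Every DKO library lay below every WT library, with a log2 fold change of -0.61 (SE 0.08, limma adjusted p = 0.000386). Farsa, the alpha subunit of the same enzyme, had 106, 113 and 120.1 FPKM in DKO, against 127, 109.7 and 102 FPKM in WT, with overlapping libraries (log2 fold change 0.01, adjusted p = 0.959).

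The levels of the subunits were also taken as a ratio within each library. Farsb over Farsa was 0.820, 0.666 and 0.723 in DKO libraries, 1.16, 0.953 and 1.14 in CTCF KO libraries and 1.09, 1.15 and 1.15 in WT libraries. The DKO libraries were the 3 lowest of 9. A two-sided exact permutation test gave p = 0.1 for DKO against WT and for DKO against CTCF KO, the smallest that 3 against 3 libraries allow, and p = 0.8 for CTCF KO against WT. This ratio was chosen after its values were seen. Exons of Farsb share 248 bases with Sgpp2 on the opposite strand, and whether reads were counted by strand is not given in the sources used here.

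The enzymes of the multi-synthetase complex made up most of the other falls. Of its 8 enzymes, 4 (50%) were lower and none was called higher, with a median log2 fold change of -0.28. The share of all tested genes called lower was 21.9%. Kars, the lysine enzyme, whose gene serves cytoplasm and mitochondria, had 148, 153 and 137 FPKM in DKO libraries, against 207, 186 and 174 FPKM in WT libraries (log2 fold change -0.37, SE 0.07, adjusted p = 0.0033). Dars, the aspartate enzyme, had 141, 146 and 145 FPKM in DKO, against 213, 192 and 172 FPKM in WT (-0.41, SE 0.09, adjusted p = 0.00584). Rars, the arginine enzyme, had 72.1, 70.5 and 64.8 FPKM in DKO, against 103, 93.2 and 85.5 FPKM in WT (-0.43, SE 0.09, adjusted p = 0.00371). In all 3 the groups did not overlap. Qars, the glutamine enzyme, fell by 0.32 on the log2 scale. The complex enzymes Eprs, Iars, Lars and Mars, for glutamate and proline, isoleucine, leucine and methionine, were not called (-0.24 to 0.17).

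The 3 scaffold proteins that hold the complex together also fell. Aimp2 had 74.7, 76.1 and 75.7 FPKM in DKO libraries, against 101, 101 and 94.8 FPKM in WT libraries (log2 fold change -0.38, limma adjusted p = 0.0011). The log2 fold change was -0.35 for Aimp1 (adjusted p = 0.0187) and -0.19 for Eef1e1 (adjusted p = 0.0393). Outside the complex, 2 of 12 cytoplasmic enzymes were higher and 2 lower (median 0.07), against 18.5% and 21.9% of all tested genes. The second lower one was Hars, the histidine enzyme (-0.29), whose exons share 195 bases with Hars2 on the opposite strand.

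Cars, the cysteine enzyme, had the larger of the 2 called rises; Yars2, described further on, had a higher fold but was not called. It had 50.6, 56.7 and 54.6 FPKM in DKO libraries, against 35.5, 32.2 and 30.1 FPKM in WT libraries (54.0 ± 3.10 and 32.6 ± 2.74 FPKM, SD, n = 3 each), and the log2 fold change was 0.71 (SE 0.10, limma adjusted p = 0.000595). The lowest DKO library stood well above the highest WT library. Aars, the alanine enzyme, had 49.5, 60.1 and 56.2 FPKM in DKO, against 43.4, 43.7 and 40.0 FPKM in WT (0.37, SE 0.12, adjusted p = 0.0288). Its groups did not overlap, but the call was lost without DKO library 2, DKO library 3 or any 1 of the WT libraries. Aars shares 1326 exon bases with Exosc6 on the same strand, so reads there could come from either gene.

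Among the 15 mitochondrial enzymes, 1 was lower and none was called higher, against 21.9% and 18.5% of all tested genes. Rars2, the mitochondrial arginine enzyme, had 39.1, 43.2 and 42.9 FPKM in DKO libraries, against 52.9, 51.0 and 47.0 FPKM in WT libraries (log2 fold change -0.26, SE 0.07, limma adjusted p = 0.0183). Both arginine enzymes were thus lower in DKO.

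The DKO libraries also stood apart in a GC index of the libraries. The index (the median deviation of 1165 genes that hold a 100-base stretch of at least 83% G and C, minus that of the other genes, in log2 units) was 0.38, 0.50 and 0.35 in DKO, 0.01, -0.34 and -0.36 in CTCF KO and -0.47, -0.23 and 0.11 in WT. All DKO libraries lay above all others, so the index and the DKO genotype cannot be told apart. With the index as a covariate, added after seeing the data, 1 member remained lower (Farsb, -0.42, limma adjusted p = 0.0408), and 5 were higher, Cars (0.99, adjusted p = 0.00108) and Aars (0.63, adjusted p = 0.0313) among them. The calls of Dars (-0.23), Kars (-0.26), Rars (-0.18), Qars (-0.14), Hars (-0.16) and Rars2 (-0.21) were lost, with all 6 folds still below 0, as were those of the 3 scaffold proteins. Calls among all 10172 tested genes, in either direction, were 1927 with the index and 4113 without it. The part of the index in the falls was not tested. Without DKO library 1, WT library 1 or WT library 2, 4 members were lower, with Hars, Qars and Rars2 no longer called. Hars was also lost without DKO library 3 or WT library 3, and Qars without DKO library 3.

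**Figure D2:**
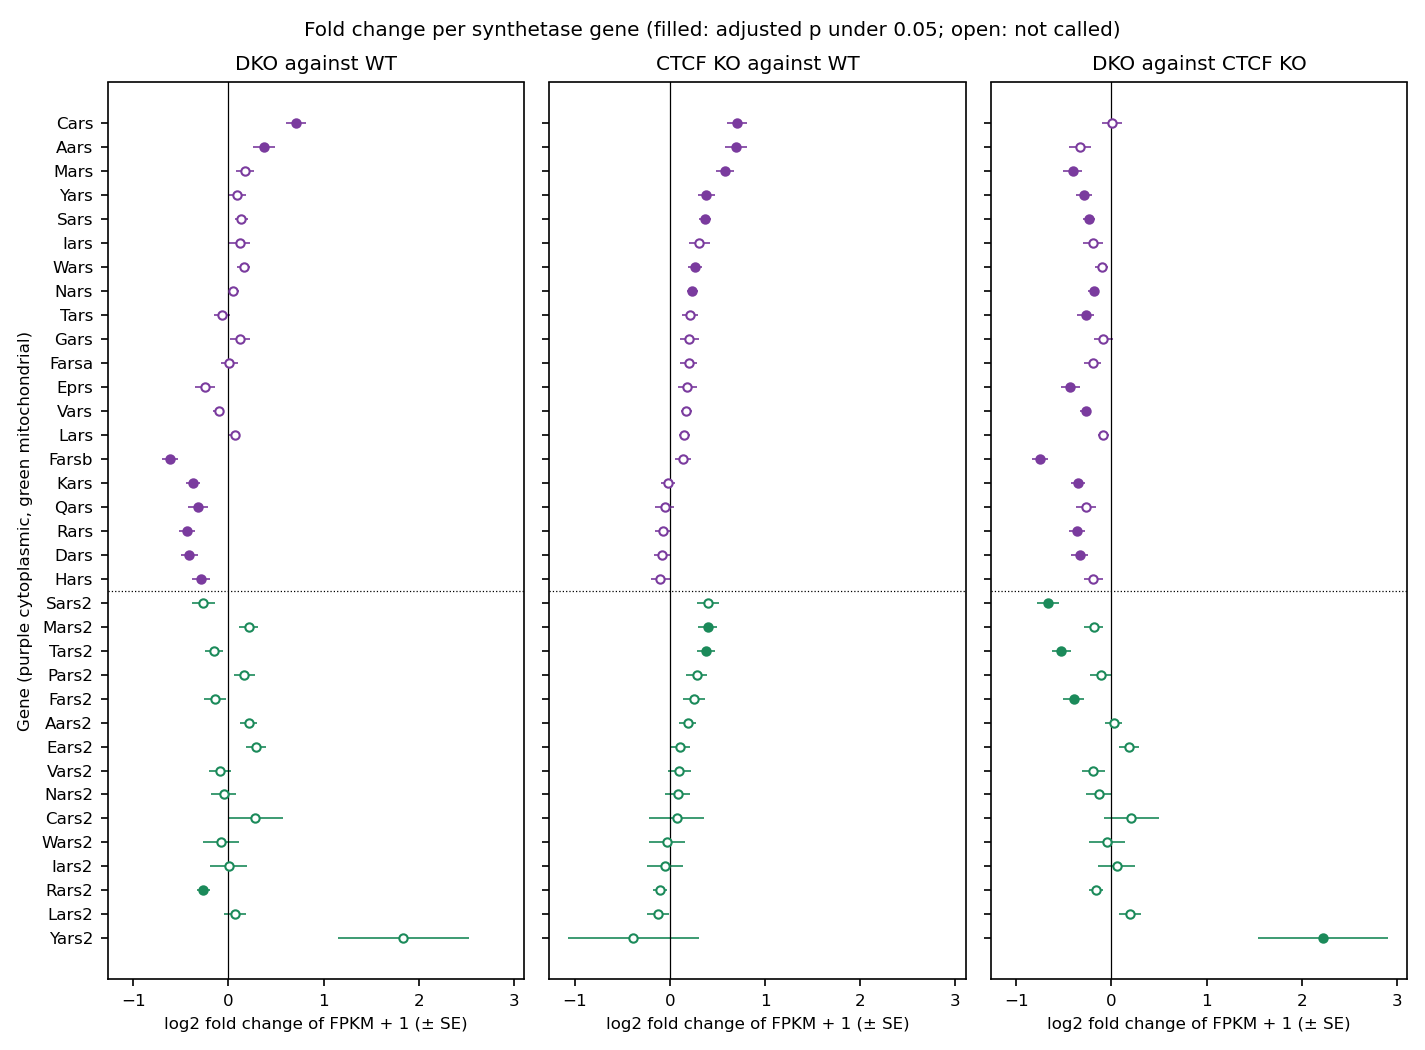
Log2 fold change of FPKM + 1 with its SE for each synthetase gene in the 3 comparisons, cytoplasmic genes in purple above the dotted line and mitochondrial genes in green below. Filled points have an adjusted p under 0.05: Cars lies at 0.71 in both knockout groups against WT, and 19 of 20 cytoplasmic genes lie below 0 in DKO against CTCF KO.

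The comparison of CTCF KO with WT covers the same transcripts in the libraries so labelled. Ctcf RNA was not called lower there, and the difference in Y-linked genes cannot be told apart from the genotype. Enzymes for cysteine, alanine, methionine, tyrosine, serine, tryptophan and asparagine rose in the cytoplasmic set, and those for methionine and threonine in the mitochondrial set. In all, 9 of 35 members (25.7%) were higher and 0 lower in CTCF KO, against 5.78% and 6.37% of all tested genes. No member was called lower by limma in any setting that was run. By the q-values of the authors' deposited table, 6 members were higher and 0 lower, against 1.81% and 2.41% of all genes in the table. The median log2 fold change was 0.18 for the members and 0.01 for all genes, and 16 of 35 members had all CTCF KO libraries above all WT libraries and 0 had them below, against 16.0% and 14.4% of all tested genes.

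Cars had 47.4, 53.2 and 61.2 FPKM in CTCF KO libraries, against 35.5, 32.2 and 30.1 FPKM in WT libraries (54.0 ± 6.91 and 32.6 ± 2.74 FPKM, SD, n = 3 each; log2 fold change 0.71, SE 0.10, limma adjusted p = 0.00235). Aars had 58.1, 73.2 and 78.2 FPKM in CTCF KO, against 43.4, 43.7 and 40.0 FPKM in WT (0.70, SE 0.12, adjusted p = 0.00425). Mars, the methionine enzyme, had 121, 148 and 155 FPKM in CTCF KO, against 100.3, 96.0 and 85.6 FPKM in WT (0.58, SE 0.10, adjusted p = 0.00442). In these 3 genes the lowest CTCF KO library was above the highest WT library. Exons of Mars share 68 bases with Ddit3 on the opposite strand, a gene that itself averaged 50.4 FPKM in CTCF KO and 27.9 FPKM in WT.

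Smaller rises were called for 4 more cytoplasmic enzymes. Sars, the serine enzyme, had 115, 127 and 123 FPKM in CTCF KO libraries, against 100.5, 89.3 and 91.8 FPKM in WT libraries (log2 fold change 0.37, SE 0.07, limma adjusted p = 0.00624). Yars, the tyrosine enzyme, had 52.8, 58.7 and 55.4 FPKM in CTCF KO, against 46.5, 38.7 and 42.3 FPKM in WT (0.38, SE 0.09, adjusted p = 0.0202). Wars, the tryptophan enzyme, had 86.9, 88.1 and 93.9 FPKM in CTCF KO, against 81.3, 72.2 and 70.3 FPKM in WT (0.26, SE 0.07, adjusted p = 0.0381). The libraries did not overlap in any of these, though Wars came closest. Nars, the asparagine enzyme, had a log2 fold change of 0.24 (adjusted p = 0.0288).

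Of the mitochondrial enzymes, Mars2 had 8.32, 7.71 and 8.92 FPKM in CTCF KO libraries, against 6.21, 6.02 and 5.92 FPKM in WT libraries (log2 fold change 0.40, SE 0.10, limma adjusted p = 0.0308). Methionine was the amino acid for which both enzymes were higher. Tars2 had 66.6, 77.6 and 74.4 FPKM in CTCF KO, against 58.5, 53.7 and 55.2 FPKM in WT (0.38, SE 0.10, adjusted p = 0.0336). Sars2, the mitochondrial serine enzyme, was above WT in every CTCF KO library (0.40) but was not called (adjusted p = 0.0575).

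The complex enzymes contributed 1 of the 9 rises, Mars, with 1 of 8 higher and a median of 0.07. The other 12 cytoplasmic enzymes contributed 6, with a median of 0.22. Among all tested genes 5.78% were higher, and the difference between these sets was not tested. None of the 3 scaffold proteins was called. Of the 5 cytoplasmic members whose promoter window holds TGATGNAA, Aars and Yars were called and Iars (0.31, limma adjusted p = 0.101), Gars (0.21, adjusted p = 0.248) and Tars (0.21, adjusted p = 0.16) were not, while no RefSeq window was matched for Cars and that of Mars holds neither motif. Without CTCF KO library 2, CTCF KO library 3, WT library 2 or WT library 3, 5 members were higher. Yars was lost without CTCF KO library 2, CTCF KO library 3 or WT library 2, and Nars in the fits that left out WT library 1, WT library 3, CTCF KO library 1 or CTCF KO library 2. Wars was lost without any 1 of the CTCF KO libraries or without WT library 2 or 3. Mars2 and Tars2 were lost without any 1 of the WT libraries or CTCF KO library 3, Mars2 also without CTCF KO library 1 and Tars2 without CTCF KO library 2. With the GC index as a covariate, 11 members were higher, the 9 called without it included. Calls among all tested genes, in either direction, were 1486 with the index and 1236 without it. With the replicate number as a block, 0 members and 297 of all genes were called.

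**Figure D3:**
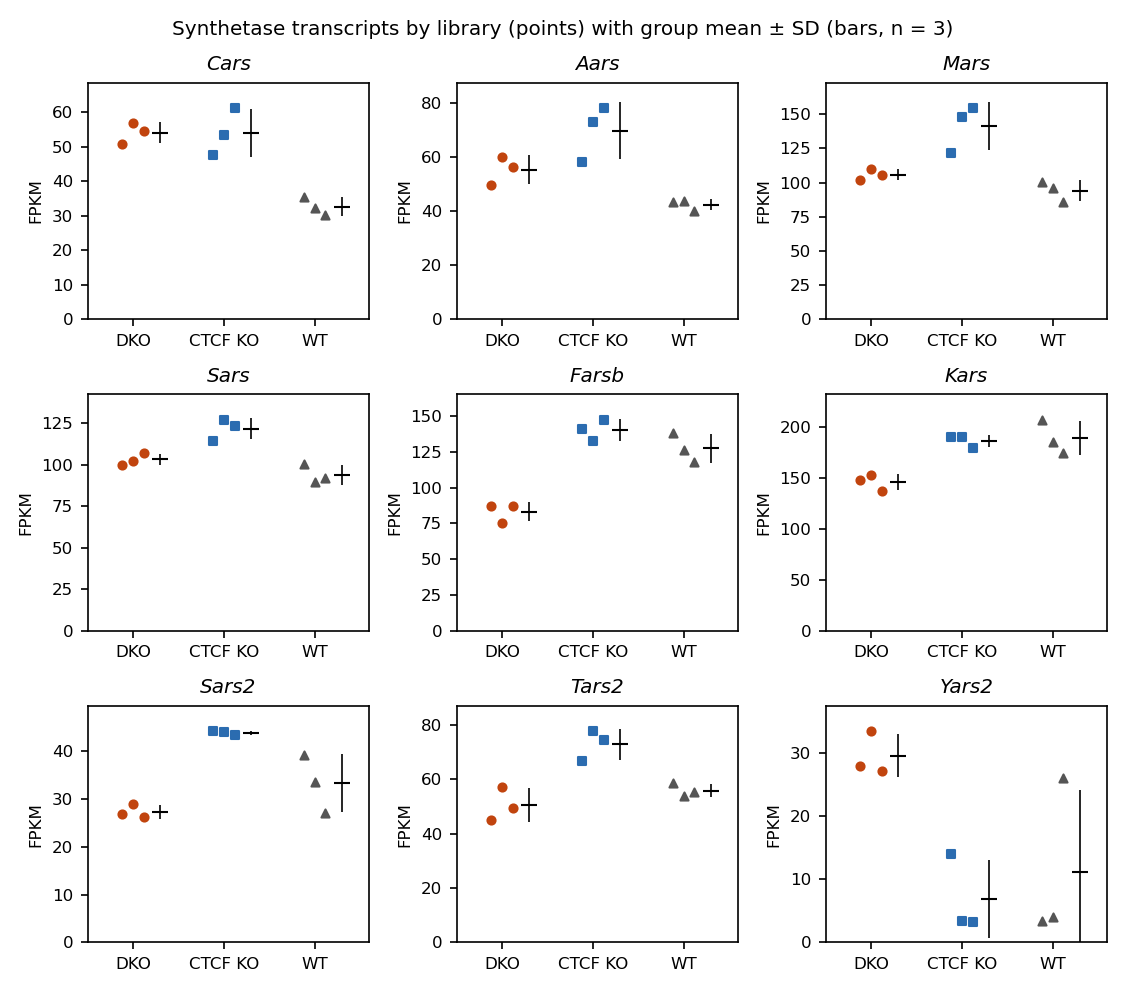
FPKM of 9 synthetase genes in every library (points) with the group mean ± SD (bars, n = 3 per group; the Yars2 bars are cut at 0). Cars stands at 47.4 to 61.2 FPKM in the knockout libraries and at 30.1 to 35.5 FPKM in WT, while Farsb and Kars are low in DKO alone.

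The knockouts were also set against each other, and most cytoplasmic transcripts were lower in DKO. Of 35 members, 1 (2.86%) was higher and 14 (40.0%) lower in DKO than in CTCF KO, against 16.2% and 21.8% of all tested genes. The median log2 fold change was -0.19 for the members and -0.02 for all genes. All libraries of DKO were above all of CTCF KO for 2 members and below them for 20, against 24.2% and 28.3% of all tested genes. By the q-values of the authors' deposited table, 1 member was higher and 8 lower, against 6.68% and 5.75% of all genes in the table. Of the 20 cytoplasmic enzymes 11 were lower and none was called higher, and the exception to the common sign was Cars (0.01, limma adjusted p = 0.966). The complex enzymes gave 5 of these 11 (Eprs, Mars, Rars, Kars and Dars), with a median of -0.34.

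Farsb had 87.1, 75.5 and 86.8 FPKM in DKO libraries, against 141, 132 and 148 FPKM in CTCF KO libraries (log2 fold change -0.75, SE 0.08, limma adjusted p = 0.00013). Eprs, a single protein with the glutamate and the proline enzyme, had 70.9, 83.6 and 74.8 FPKM in DKO, against 100.9, 101.9 and 106 FPKM in CTCF KO (-0.43, SE 0.10, adjusted p = 0.0094). Mars had 102, 110.1 and 105 FPKM in DKO, against 121, 148 and 155 FPKM in CTCF KO (-0.41, SE 0.10, adjusted p = 0.00944). The libraries of the groups did not overlap in any of the 3.

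Rars (log2 fold change -0.36), Kars (-0.35) and Dars (-0.33) were lower by like amounts. Rars had 72.1, 70.5 and 64.8 FPKM in DKO, against 81.6, 94.3 and 92.0 FPKM in CTCF KO. Kars had 148, 153 and 137 FPKM in DKO, against 189.7, 190.1 and 179 FPKM in CTCF KO. Dars, at 141 to 146 FPKM in DKO and 163 to 198 FPKM in CTCF KO, had the widest spread of these 3 in CTCF KO. Yars, Tars, Vars, Sars and Nars were lower by 0.18 to 0.29 on the log2 scale.

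Of the 15 mitochondrial enzymes, 3 were lower (20%), against 21.8% of all tested genes. Sars2 had 26.9, 29.0 and 26.2 FPKM in DKO libraries, against 44.2, 44.0 and 43.5 FPKM in CTCF KO libraries (log2 fold change -0.66, SE 0.12, limma adjusted p = 0.00217). Tars2 had 44.9, 57.1 and 49.5 FPKM in DKO, against 66.6, 77.6 and 74.4 FPKM in CTCF KO (-0.52, SE 0.10, adjusted p = 0.00249). Fars2, the single-chain mitochondrial phenylalanine enzyme, had 30.3, 34.7 and 33.3 FPKM in DKO, against 41.1, 39.9 and 49.7 FPKM in CTCF KO (-0.39, SE 0.11, adjusted p = 0.0218). In all 3, every DKO library was below every CTCF KO library. Exons of Fars2 share 115 bases with Lyrm4 on the opposite strand. With the GC index as a covariate 1 of the 14 lower calls was left, Farsb (-0.55, adjusted p = 0.0202). Calls among all tested genes in this comparison, in either direction, were 1404 with the index and 3867 without it. Without CTCF KO library 3 or DKO library 1, 9 members were lower. Dars and Fars2 were lost without either of those, and Nars, Sars, Tars and Yars each without 4 of the 6 libraries in turn.

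Yars2, the mitochondrial tyrosine enzyme, was the single member called higher in DKO than in CTCF KO and the least even within groups. It had 28.0, 33.5 and 27.2 FPKM in DKO, 13.9, 3.45 and 3.17 FPKM in CTCF KO and 3.45, 4.09 and 26.1 FPKM in WT. The DKO libraries were the 3 highest, while WT library 3 and CTCF KO library 1 stood apart from their own groups. The log2 fold change was 2.22 against CTCF KO (SE 0.69, limma adjusted p = 0.0304) and 1.84 against WT (SE 0.69, adjusted p = 0.0578, not called). The authors' deposited table gives a q-value of 0.000488 for both. The GC index was 0.11 in WT library 3 and 0.01 in CTCF KO library 1, the highest of their groups, and the richest 100-base stretch of its transcript is 81.0% G and C. The part of the index in the Yars2 values was not tested. With the index as a covariate the difference from CTCF KO turned to -0.74 (adjusted p = 0.272). The call was also lost without CTCF KO library 2, CTCF KO library 3 or any 1 of the DKO libraries.

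**Figure D4:**
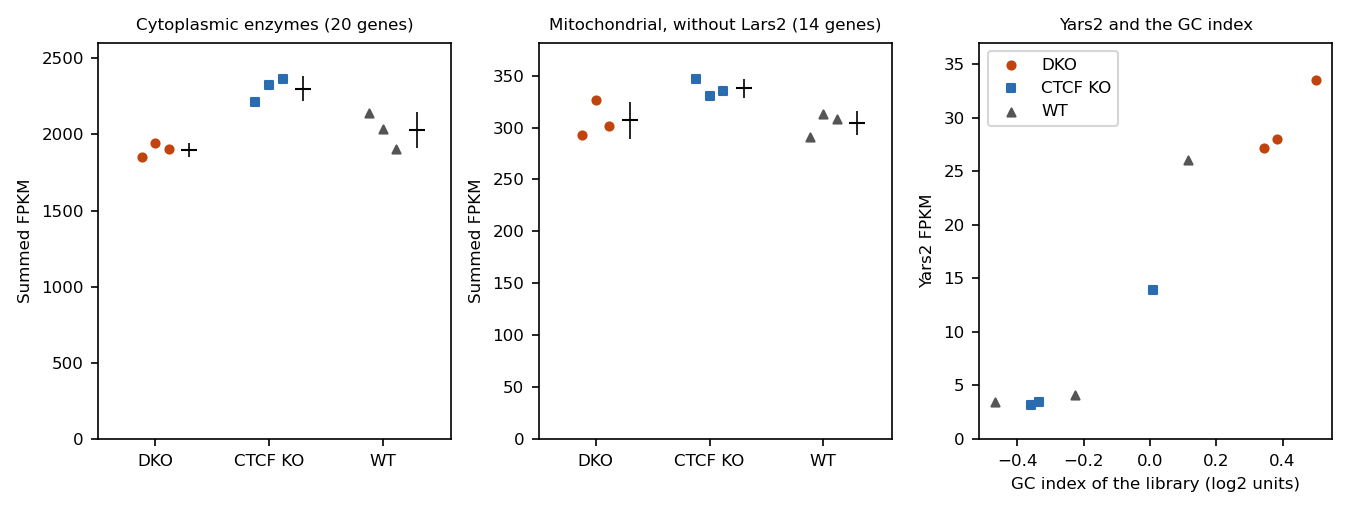
Summed FPKM of the 20 cytoplasmic genes (left) and of the 14 mitochondrial genes without Lars2 (middle) per library, with group mean ± SD (n = 3), and Yars2 FPKM against the GC index of each library (right). The cytoplasmic sum is 2213 to 2367 FPKM in CTCF KO and 1853 to 2140 FPKM in the other libraries, and Yars2 is at 26.1 FPKM or more in the 4 libraries with the highest index.

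Cytoplasmic and mitochondrial enzymes were then compared as classes. The cytoplasmic sum was 1901 ± 45.6 FPKM in DKO, 2302 ± 79.6 FPKM in CTCF KO and 2028 ± 118 FPKM in WT (SD, n = 3 each). The CTCF KO libraries were the 3 highest of 9, and the DKO libraries (1853 to 1944 FPKM) overlapped the WT libraries (1905 to 2140 FPKM). The mitochondrial sum without Lars2 was 307 ± 17.7 FPKM in DKO, 338 ± 8.73 FPKM in CTCF KO and 304 ± 11.6 FPKM in WT, with the CTCF KO libraries again highest. With Lars2 it was 578 ± 32.3, 573 ± 13.9 and 563 ± 42.0 FPKM in the same 3 groups, within the spread of the libraries.

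The classes were also described by their calls and by their median log2 fold changes. In CTCF KO against WT, 7 of 20 cytoplasmic (35.0%) and 2 of 15 mitochondrial enzymes (13.3%) were higher, with medians of 0.20 and 0.10. In DKO against WT, 6 of 20 (30.0%) and 1 of 15 (6.67%) were lower, with medians of 0.03 and 0.00. In DKO against CTCF KO, 11 of 20 (55.0%) and 3 of 15 (20%) were lower, with medians of -0.27 and -0.11. Among all tested genes, 5.78% were higher in CTCF KO against WT. The shares of all tested genes called lower were 21.9% in DKO against WT and 21.8% in DKO against CTCF KO. The mitochondrial genes are mostly lower in level, where log2(FPKM + 1) understates a fold, and the difference between the classes was not tested. That difference of medians had the other sign in DKO against WT without WT library 3 (-0.08) or DKO library 3 (-0.06) or with only genes of at least 5 FPKM on average (-0.01), and in DKO against CTCF KO with the GC index as a covariate (0.05). It shrank in CTCF KO against WT to 0.0015 without WT library 3 and 0.04 without CTCF KO library 3, against 0.10 with all libraries. In DKO against CTCF KO it was -0.02 with quantile normalization, against -0.16 without it.

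The comparisons share libraries, so their values are given side by side and no overlap is read from them. Cars stood at 0.71 in DKO against WT, 0.71 in CTCF KO against WT and 0.01 in DKO against CTCF KO. Aars stood at 0.37, 0.70 and -0.33 in the same order, and Mars at 0.17, 0.58 and -0.41. The knockout means of Cars differed by less than the spread of their libraries, while Mars was called against both other groups in CTCF KO. Farsb stood at -0.61, 0.14 and -0.75, and Kars at -0.37, -0.02 and -0.35. At least 1 call in the 3 comparisons was made for 22 of 35 members, 16 of 20 cytoplasmic and 6 of 15 mitochondrial, against 50.9% of all tested genes. The uncalled cytoplasmic genes were Farsa, Gars, Iars and Lars.

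Other genes that handle tRNA were counted in the same fits. Of 26 tested genes for tRNA maturation, export and proofreading, 1 was higher and none was called lower in CTCF KO against WT, namely Elac1, which trims tRNA 3′ ends (log2 fold change 0.72, limma adjusted p = 0.0031). Of 37 tRNA-modifying enzymes, 2 were higher (Qtrt1, a queuosine enzyme, and Mettl1, a methyltransferase) and none was called lower, against 5.78% of all tested genes higher and 6.37% lower. In DKO against WT, 1 of the 26 maturation genes was higher and 12 lower, and 2 of the 37 modifying enzymes were higher and 6 lower. Of all tested genes 18.5% were higher and 21.9% lower in that comparison, so the modifying enzymes do not stand out from all genes in their lower calls. Of 7 cytoplasmic elongation genes, 5 were lower in DKO than in WT, Eef1g, Eef1b2, Eif5a and Eef1a1 among them. Of 10 mitochondrial translation factors 4 were lower, Tsfm and Tufm among them. With the GC index as a covariate the lower calls in DKO against WT came to 3 of 26, 0 of 37, 1 of 7 and 2 of 10 in these 4 lists. Calls among all 10172 tested genes, in either direction, were 1927 with the index and 4113 without it.

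Genes of the ATF4 pathway, which includes amino acid synthesis and transport, were counted likewise. Of 22 tested, 11 were higher and none was called lower in CTCF KO against WT (median log2 fold change 0.42), against 5.78% and 6.37% of all tested genes. In DKO against WT, 4 were higher and 6 lower (0.11), near the 18.5% and 21.9% of all tested genes. In DKO against CTCF KO, 1 was higher and 13 lower (-0.37), against 16.2% and 21.8% of all tested genes. With the GC index as a covariate, 11 were again higher in CTCF KO against WT, 3 were higher and 4 lower in DKO against WT, and 1 was higher and 9 lower in DKO against CTCF KO. Calls among all 10172 tested genes with that covariate, in either direction, were 1486, 1927 and 1404 in the same order. Trib3, a feedback inhibitor of ATF4, averaged 5.23 FPKM in DKO, 12.5 FPKM in CTCF KO and 2.46 FPKM in WT. Slc3a2, a chain of amino acid transporters, averaged 118 FPKM in DKO, 119 FPKM in CTCF KO and 78.2 FPKM in WT, and was called higher in each knockout group (log2 fold change 0.59 in both, limma adjusted p = 0.000507 in DKO and 0.0019 in CTCF KO). Asns, which makes asparagine, averaged 0.360 ± 0.232 FPKM in DKO, 31.3 ± 1.27 FPKM in CTCF KO and 16.5 ± 1.03 FPKM in WT (SD, n = 3 each). Atf4 itself averaged 66.2, 68.5 and 61.8 FPKM in the same 3 groups and was called in no comparison.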

How the data were processed

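RNA-seq of 9 libraries of sorted mouse CD8 T cells was used (3 DKO, 3 CTCF KO, 3 WT), grouped by the source names. Per the submitters' processing notes, FastQC, TopHat2 2.1.0 and Cuffdiff 2.2.1 were used, with mm9 and mm10 named. The authors deposited 1 table of FPKM per library and the q-values of their own pairwise comparisons; library scaling, annotation and strand setting are not given in the sources used here. Low values shared a common step in 13 to 36 of the 44 to 130 genes compared per library. That step gives depth only relative to CTCF KO library 1, at 0.536 for CTCF KO library 3 and 0.749 to 0.867 for the others. Absolute depth is unknown, and precision rests on the library spread alone.

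Values were taken as log2(FPKM + 1), which understates folds of low genes. Genes that reached 1 FPKM in 3 or more libraries were fitted with limma 3.58.1 in R 4.3.3 (1 mean per group over all 9 libraries, intensity trend), with two-sided tests and Benjamini-Hochberg adjustment over 10172 genes. The script was tested on simulated data. No label says that the libraries are from different animals; the p-values cover only how these libraries vary, which may be technical. Of 22463 genes matched by symbol, 962 had table positions within 1000 bases of GRCm38, so no table positions are printed. Exon overlaps are from GENCODE M21 on GRCm38.

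Library values are given for the called members with the largest changes per comparison and class, and for the most abundant. Members, gene lists and motifs were chosen with earlier results of these data known. Alternatives covered the pseudocount, filters, normalization, samples in the fit, array weights, a replicate block, the authors' q-values, leaving out each library, and the GC index.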

Additional observations from a re-analysis of the deposited data

How the results depend on the processing

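The CTCF KO rises of Aars, Cars, Mars and Sars were called in all 6 fits that left out 1 library, as were Cars, Dars, Farsb, Kars and Rars in DKO against WT and Eprs, Farsb, Kars, Mars, Rars, Vars, Sars2 and Tars2 in DKO against CTCF KO. With the GC index as a covariate, chosen after seeing the data, all genes called were 1927 in DKO against WT (4113 without it) and 1404 in DKO against CTCF KO (3867 without it); members called in DKO against WT were 5 higher and 1 lower, in DKO against CTCF KO 0 higher and 1 lower, and Yars2 turned to -0.74. In DKO against WT, members higher were 1 with no filter, 6 with quantile normalization and 8 with array weights, and by the authors' q-values 4 were lower. By those q-values 8 members were lower in DKO than in CTCF KO, and with no filter 0 were higher. In CTCF KO against WT, array weights gave 2279 genes and 14 members higher, against 1236 and 9.

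Leaving out 1 library gave 3226 to 4152 genes, 1 to 2 higher and 4 to 8 lower members in DKO against WT (1 higher without WT 2, DKO 2 or DKO 3), and 2933 to 3663 genes, 0 to 1 higher and 9 to 14 lower members in DKO against CTCF KO. In CTCF KO against WT it gave 763 to 962 genes (763 without WT 2, 807 without CTCF KO 3, 812 without CTCF KO 2) and 5 to 8 higher members.

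With the replicate number as a block, 297 genes and 0 members were called in CTCF KO against WT. In their deviations from the group mean, same-numbered libraries correlated at -0.619, 0.158 and -0.447, and differently numbered ones at -0.351 to 0.617. With 3 libraries per group, these values cannot decide whether the numbers mark pairs. For the 2 comparisons with DKO, no such fit was made. No paired analysis was possible because there the DKO columns carry no number that fits a single label. Median scaling and quantile normalization moved the median of all genes by less than 0.1 on the log2 scale.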
